A study of Mus musculus and other sequences with 2 samples.

Results

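The miR-106b/miR-25 and miR-106a/miR-363 clusters are the paralogues of the miR-17/miR-92 cluster in the mouse genome, and 7 of the 750 miRNA assays of the array belonged to them by name. These were the mouse assays miR-106b, miR-93 and miR-25 of the first cluster and miR-106a, miR-18b, miR-20b and miR-363 of the second, each without the # that marks a minor arm. Media conditioned by CD1 mouse blastocysts and an equivalent blank were profiled by reverse transcription and quantitative PCR on TaqMan rodent array cards A and B, with 1 sample of each and no replicate. The conditioned sample was 6 μL taken from an 8 μL microdroplet of BSA-free KSOM, supplemented per the labels with 0.1% polyvinylacetate where the study's methods name PVA as polyvinyl alcohol, in which 25 embryos were held for 17 h, from 99 to 116 h post-hCG. The embryos came from superovulated females that were mated with CD1 males. The females were 3 weeks old per the labels, where the study's methods give an age range that starts there. The embryos were cultured in 5% O2 and 5% CO2. They are called blastocysts in the labels and compacted or cavitating morulae at the start of conditioning in the study's methods. The blank was the same medium, without embryos, cultured for 17 h. Pooled embryos of 1 microdroplet cannot show how single embryos vary, and with 1 sample per medium no test between the media was possible.

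Clustered miRNAs are cut from 1 primary transcript and can then be regulated separately at maturation. Members of these families are known for promoting cell cycle progression and survival, in part by repressing Cdkn1a and Bcl2l11, and they are abundant in proliferating embryonic cells. Mouse embryos lacking both miR-17/miR-92 and miR-106b/miR-25 die in mid-gestation, whereas the X-linked cluster alone is dispensable. The seed, bases 2 to 8 of the mature miRNA, sets most of its target choice, so that members with the same seed from different clusters are expected to repress overlapping sets of transcripts.

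All 7 members were matched to a RefSeq mature sequence (build GRCm38.p6), with each assay taken as the main arm in the older naming. The sequences are shown because they define the seed groups by which the Ct values are set out, with the seed in capitals. In the miR-106b/miR-25 cluster, read in the direction of transcription, they were as follows.
miR-106b-5p: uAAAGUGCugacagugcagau
miR-93-5p: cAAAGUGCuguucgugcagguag
miR-25-3p: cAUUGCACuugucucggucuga
In the miR-106a/miR-363 cluster, they were as follows.
miR-106a-5p: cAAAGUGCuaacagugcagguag
miR-18b-5p: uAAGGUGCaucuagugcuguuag
miR-20b-5p: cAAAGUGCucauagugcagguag
miR-363-3p: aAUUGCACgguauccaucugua
The 4 members miR-106b, miR-93, miR-106a and miR-20b have the seed AAAGUGC, which miR-17 and miR-20a of the miR-17/miR-92 cluster also carry. miR-25 and miR-363 have the seed AUUGCAC, shared with miR-92a, miR-32 and miR-367. miR-18b has the seed AAGGUGC of miR-18a. In the 4 members of the first group, bases 3 to 9 read AAGUGCU, the seed of several embryonic miR-290 family miRNAs, among them miR-291a-3p and miR-295-3p, 1 base further along.

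In GRCm38.p6 the hairpins of miR-106b (chr5:138165737-138165818), miR-93 (chr5:138165523-138165610) and miR-25 (chr5:138165321-138165404) lie on the minus strand within Mcm7, which encodes a subunit of the replicative helicase and is transcribed from the same strand. The hairpins of miR-106a (chrX:52742503-52742567), miR-18b (chrX:52742331-52742413), miR-20b (chrX:52742113-52742192) and miR-363 (chrX:52741693-52741767) lie on the minus strand next to the long non-coding RNA Kis2. Between miR-20b and miR-363 lie Mir19b-2 and Mir92-2, whose main mature forms, miR-19b-3p and miR-92a-3p, are identical to those of the miR-17/miR-92 hairpins Mir19b-1 and Mir92-1. A Ct of miR-19b or miR-92a therefore cannot be assigned to either cluster, and both assays were treated here with miR-17/miR-92.

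**Figure D1:**
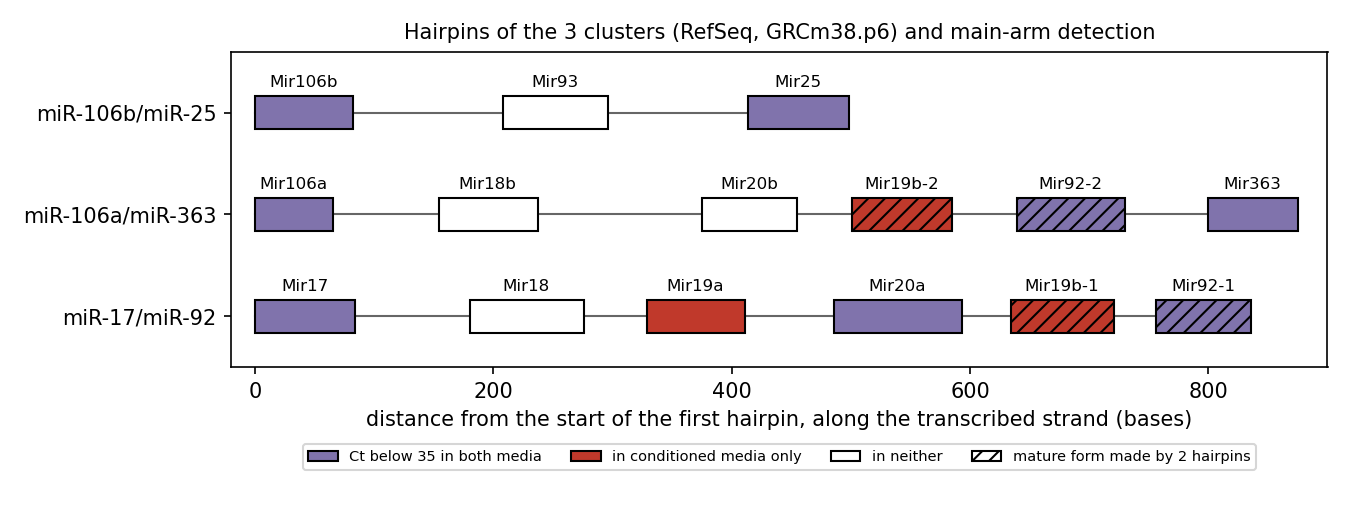
Hairpins of the 3 clusters drawn to scale, as distance in bases from the start of the first hairpin along the transcribed strand, filled by the media in which the main-arm assay had a Ct below 35. Of the members, Mir106b, Mir25, Mir106a and Mir363 were detected in both media and Mir93, Mir18b and Mir20b in neither, while the hatched hairpins give mature forms that 2 clusters share.

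The measured value is the Ct, the cycle at which the fluorescence of a well crosses a threshold. The scale is log2 and runs backwards, so that an earlier Ct means more template, and a well that never crosses is undetermined. A sequence with a Ct below 35 was called detected. The study's methods also require a minimum height of the fluorescence signal (ΔRn), which is a stricter rule, and whether any Ct given here, such as the early one of miR-106a, would pass it was not tested. All 7 members were on card A. In conditioned media, 4 of the 7 were detected, beside 39.8% of the 374 miRNA assays of that card, and in blank media the same 4 were, beside 32.6%. No member was detected in conditioned media only, a class that held 14.7% of card A assays, so that the 4 were in the class detected in both media, which held 25.1%. With 7 assays, these shares are given as a description.

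In the miR-106b/miR-25 cluster, mmu-miR-106b (assay 442), from the first hairpin, crossed the threshold at a Ct of 27.3 with embryos and 29.6 in the blank. mmu-miR-25 (assay 403), from the last, did so at 29.4 with embryos and 31.9 in the blank. Both were earlier with embryos by similar amounts. Taken throughout as conditioned minus blank, the difference in Ct was -2.29 cycles for miR-106b and -2.47 for miR-25. mmu-miR-93 (assay 1090), which lies between them, reached a Ct of only 38.2 with embryos, past the limit, and none in the blank. The middle hairpin of this cluster was thus the one without a detected main arm.

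In the miR-106a/miR-363 cluster, mmu-miR-106a (assay 2459), from the first hairpin, gave a Ct of 13.5 with embryos and 19.3 in the blank, a difference of -5.77 cycles. mmu-miR-363 (assay 1271), from the last, gave 24.0 with embryos and 27.1 in the blank, a difference of -3.08 cycles. The mouse-named assays of the other members, mmu-miR-18b (assay 2466) and mmu-miR-20b (assay 1014), from inner hairpins, were undetermined in both media.

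**Figure D2:**
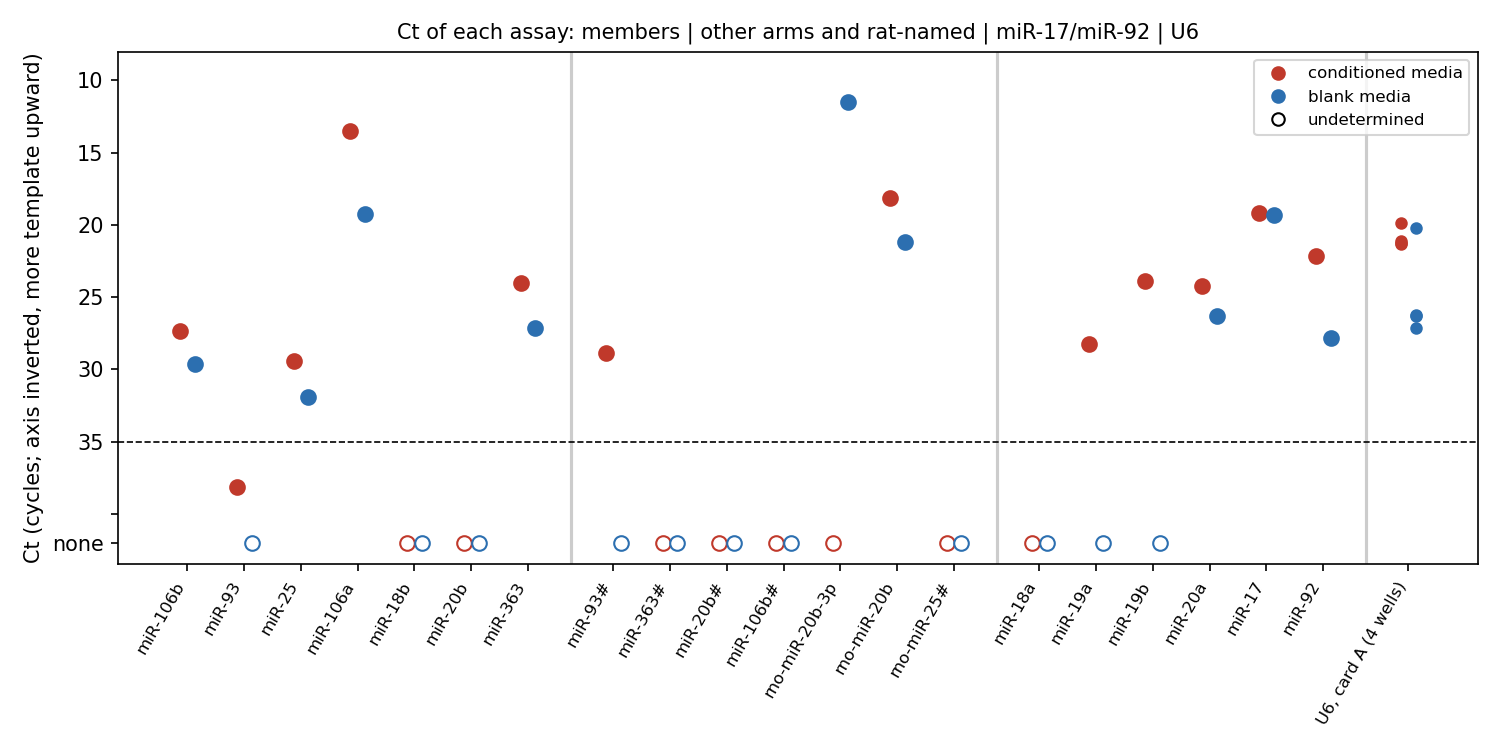
Ct in cycles on an inverted axis, 1 well per assay and medium, for the 7 members, their other-arm and rat-named assays, the 6 miR-17/miR-92 assays and the 4 U6 wells of card A, with open circles for undetermined wells and the dashed line at a Ct of 35. The 4 detected members lie higher, and so earlier, in conditioned than in blank media. The U6 wells lie between 19.9 and 21.3 with embryos, and 3 of the 4 lie between 26.3 and 27.1 in the blank.

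The order of the 4 detected members was the same in both media, with miR-106a earliest, then miR-363, miR-106b and miR-25. In conditioned media, miR-363 was 10.6 cycles later than miR-106a, miR-106b 3.28 later than miR-363, and miR-25 2.12 later than miR-106b. In blank media the same steps were 7.85, 2.50 and 2.30 cycles. Because each assay amplifies with its own efficiency, this order is one of Ct and not of amounts. The assay of miR-106a stood apart, ranking 12 of 149 detected card A assays with embryos and 41 of 122 in the blank. Its Ct was earlier than all 4 wells of the small nuclear RNA U6 on the card in each medium, as was that of 33 of the 374 card A miRNA assays with embryos and 43 in the blank. With embryos, miR-106a was also earlier than the card A assay of miR-292-3p, at 19.6. The study describes the miR-290 cluster, to which miR-292-3p belongs, as more strongly expressed than every other sequence it detected on the array. Whether the early Ct of miR-106a reflects template was not tested.

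Spread could be measured only between wells and between assays. The 4 U6 wells of card A had a mean Ct of 20.9 ± 0.68 (SD, n = 4 wells) in conditioned media and 24.98 ± 3.22 (SD, n = 4 wells) in blank media. Each SD contained 1 outlying well, at 19.9 and 20.2, without which the SDs were 0.09 and 0.49. When the SDs of both media were combined as the root of their summed squares, a difference between 2 single wells had an SD of 3.29 cycles, or 0.50 without the outlying wells. These SDs describe U6 wells of 1 sample per medium and hold no spread between microdroplets, so that they are given for scale and not as a test. The difference of miR-106a was larger than 3.29 cycles, and those of miR-106b, miR-25 and miR-363 lay between 0.50 and 3.29. Between assays the spread was wider. Of 26 names with 2 assays, both had a Ct below 35 in the same medium in 8 instances, with a median gap of 3.74 cycles and a range of 1.25 to 14.7. The pair of miR-143 differed by 7.42 cycles in conditioned media and that of miR-217 by 14.7 in blank media. These gaps lie between 2 assays within 1 medium. An offset fixed to an assay drops out of its difference between media, so the gaps do not measure the error of such a difference. For miR-223, the assay of card A gave a Ct of 31.4 with embryos and 29.5 in the blank, and that of card B gave 27.4 and 31.7, so that the direction between media was opposite in the 2 assays.

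All 4 members detected in both media were earlier in conditioned media, beside 52.1% of the 94 card A assays in that class, with a median difference of -2.77 cycles for the members and -0.12 for the 94. This direction held without normalization and with the card median subtracted, but relative to the mean U6 of the card, whose own difference was -4.08 cycles, 3 of the 4 members reversed. Whether U6 was present in equal amounts in both media, of which the blank held no embryos, was not tested. The other controls of the card had no Ct in the blank. With embryos, snoRNA202 gave 28.5, snoRNA135 33.0 and U87 32.7. Relative to U6 the difference was 1.79 for miR-106b, 1.62 for miR-25 and 1.01 for miR-363, that is later in conditioned media, and -1.69 for miR-106a. With the median of the U6 wells as the reference, miR-363 was at 2.02 and miR-106a at -0.68, and without the outlying wells at 2.27 and -0.43. Relative to the mean U6, 17% of the 94 assays were earlier in conditioned media, with a median over the 94 of 3.97, and without the outlying wells 9.57% were. Ordered from the most negative difference, the members ranked 7 (miR-106a), 23 (miR-363), 28 (miR-25) and 30 (miR-106b) of the 94, an order that no reference common to the card can alter. Only miR-106a was among the 12.8% of the 94 with a difference beyond -5 cycles.

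**Figure D3:**
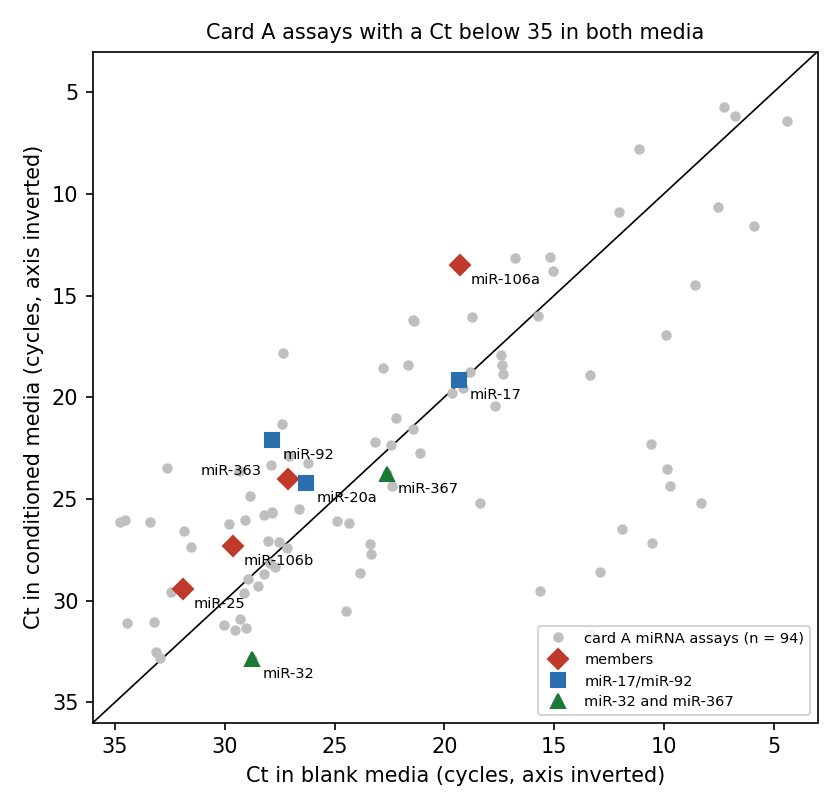
Ct in conditioned media against Ct in blank media, in cycles on inverted axes, for the 94 card A assays below 35 in both, with the line of equal Ct. The 4 members lie above the line, miR-106a farthest at -5.77 cycles, whereas miR-32 and miR-367 lie below it.

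**Figure D4:**
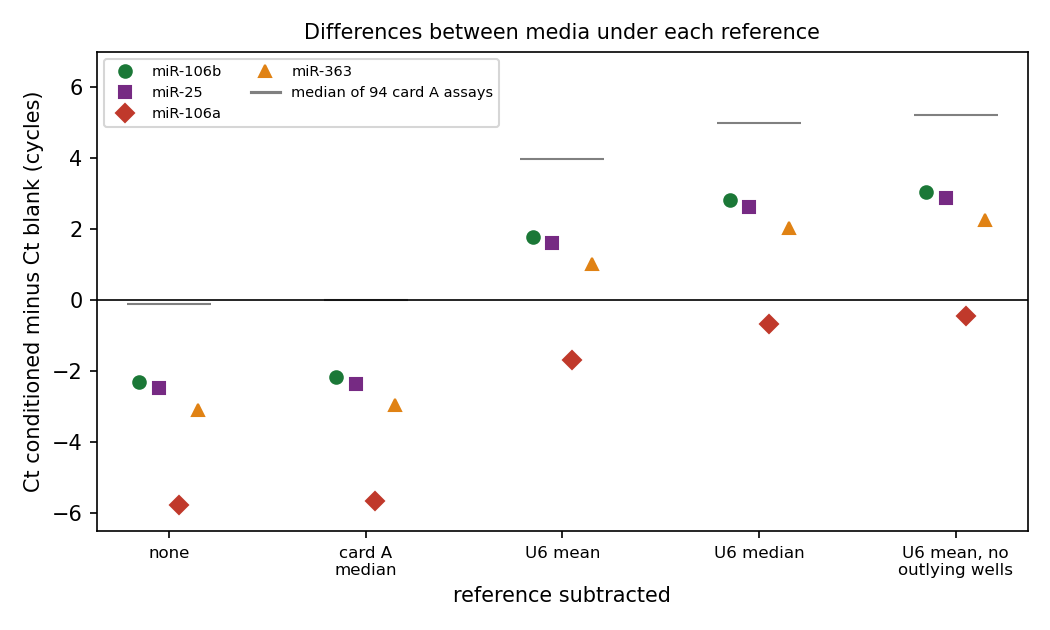
Difference in Ct, conditioned minus blank, in cycles, for the 4 detected members under 5 references, with the median of 94 card A assays as a grey line. Without a reference all 4 members lie below 0, and relative to U6 only miR-106a does, at -1.69 for the U6 mean.

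The values were next set out by seed. Among the main-arm assays with the seed AAAGUGC, miR-17 gave a Ct of 19.2 with embryos and 19.3 in the blank, a difference of -0.16 cycles. miR-20a gave 24.2 and 26.3, a difference of -2.10 cycles. Relative to the mean U6, the difference turned to 3.92 for miR-17 and 1.99 for miR-20a, as it did for miR-106b. Beside these, the members ranged without normalization from -5.77 for miR-106a, through -2.29 for miR-106b, to no detected Ct for miR-93 and miR-20b. The mature miR-106a and miR-17 differ at a single base, written A10U with positions counted from the 5′ end and the base of miR-106a first. In blank media their assays differed by 0.05 cycles, and in conditioned media miR-106a was 5.67 cycles earlier. miR-20b differs from miR-20a at 2 bases, C1U and C10U with the base of miR-20b first, and was undetermined in both media where miR-20a had a Ct in both. The last 5 bases, near which the reverse transcription primer of such assays anneals, are identical in miR-93, miR-106a, miR-20b, miR-17 and miR-20a. How far these assays tell the members apart was not tested.

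Among assays with the seed AUUGCAC, those of the 3 clusters were earlier in conditioned media without normalization and those of other loci were later, whereas relative to the mean U6 miR-25 and miR-363 were later as well and miR-92 stayed earlier, at -1.65 cycles. The difference was -2.47 for miR-25, -3.08 for miR-363 and -5.73 for miR-92, the older name of miR-92a, whose Ct was 22.1 with embryos and 27.9 in the blank. miR-367, encoded with the pluripotency-linked miR-302 miRNAs, gave 23.8 with embryos and 22.6 in the blank, a difference of 1.17. miR-32 gave 32.9 and 28.8, a difference of 4.13. With the seed AAGGUGC, both miR-18b and its paralogue miR-18a were undetermined in both media.

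Detection in conditioned media only was set side by side for the clusters. Of the 6 main-arm miR-17/miR-92 assays, 5 were detected with embryos and 3 in the blank. The 2 detected in conditioned media only were miR-19a, with a Ct of 28.2, and miR-19b, with a Ct of 23.9, both undetermined in blank media. No member was in that class, but the miR-106a/miR-363 cluster also encodes miR-19b, and neither cluster of members encodes miR-19a. The difference between clusters could not be tested with 1 sample per medium.

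The 4 mouse assays for the other arm of these hairpins were on card B. miR-93#, which corresponds to miR-93-3p (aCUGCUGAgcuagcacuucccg, seed in capitals), gave a Ct of 28.9 with embryos and none in the blank. Among the members and their other-arm and rat-named assays it was the only one detected in conditioned media only, a class that held 14.8% of the 108 mouse minor-arm assays. The other 3, miR-106b#, miR-363# and miR-20b#, were undetermined in both media. Of 3 rat-named assays with the same numbers, rno-miR-20b on card B gave a Ct of 18.2 with embryos and 21.2 in the blank, where the mouse-named miR-20b assay of card A had none in either. rno-miR-20b-3p reached 11.5 in the blank and gave none with embryos, and rno-miR-25# was undetermined in both.

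By a rule of smallest distance between pairs of Ct values, the card A mouse assays closest to the median point of the 4 detected members, at 25.7 with embryos and 28.4 in the blank, were miR-30b, miR-192 and miR-24. Their distances were 0.17, 0.51 and 0.51 cycles among 80 assays compared over 2 samples. Their differences between media were -2.45, -2.17 and -2.22 cycles, beside -5.77 to -2.29 for the members. The rule matched both Ct values, so that differences near the median of the members follow from it. Each was smaller in size than the mean U6 difference of the card, -4.08 cycles, and so relative to U6 later in conditioned media.

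The labels of the samples were checked with miRNAs of known source. Of 24 mouse assays of the embryonic miR-290 to miR-295 and miR-302 miRNAs, 14 were detected with embryos and 2 in the blank, and 12 in conditioned media only, with the earliest Ct at 19.6 for miR-292-3p. The families differed, since all 12 of the latter were among the 17 assays of miR-290 to miR-295, none of which was detected in the blank. Of the 7 miR-302 assays, 2 were detected, both in both media, with miR-302a at 21.0 with embryos and 22.2 in the blank and miR-302b at 27.1 and 28.0. miR-106b, miR-93 and miR-25 are also known from red blood cells, and of 8 blood miRNA assays 5 were detected with embryos and 6 in the blank. The red cell miRNAs miR-451 and miR-144 were undetermined in both media. miR-486 gave a Ct of 27.7 with embryos and 23.3 in the blank. Of 4 muscle assays, 2 were detected with embryos and 1 in the blank. The muscle miRNA miR-206 gave a Ct of 22.2 with embryos and 20.6 in the blank, earlier than miR-363, miR-106b and miR-25 in each medium, and miR-133a gave 31.6 with embryos and none in the blank. The liver miRNA miR-122 was undetermined in both media. The part of any of these sources in the Ct of the members was not tested.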

How the data were processed

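One sample of conditioned media and 1 of blank media were compared. The authors deposited the Ct of each of 768 wells per sample, an inverted log2 value without normalization, exported from the instrument software after reverse transcription and 12 cycles of pre-amplification. A deposited table of the authors' fold changes was not used. Threshold and baseline settings were not given in the sources used here, and the fluorescence limit of the study's methods (ΔRn) could not be applied, so detection rests on a Ct below 35, with undetermined wells counted as above it. No count includes the 18 control wells. In conditioned media 307 of 750 miRNA assays had a Ct and 280 a Ct below 35, and in blank media 244 and 218. Under both of its limits, and with fewer miRNAs screened, the study reports fewer detected sequences in each medium. Members and lists were chosen with earlier results of these data known. Members were taken by name, and the text gives every member, its other-arm and rat-named assays, the miR-17/miR-92 and same-seed main-arm assays, and the 3 assays of most similar Ct. Of the controls, only U6 and the others of card A with a Ct are given. Marker lists are given as counts with examples chosen after their values were seen. miR-92 was read as miR-92a after the values were seen. Mature sequences and hairpin positions came from RefSeq (GRCm38.p6). Each value is 1 well, and the number of wells limits the precision. Other Ct limits, U6 and card-median references and wider member lists were tried. Python 3.11.15, pandas 2.3.3, numpy 2.4.6 and matplotlib 3.10.9 were used.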

Additional observations from a re-analysis of the deposited data

Results flagged for a closer look

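The U6 well at a Ct of 19.9 with embryos and that at 20.2 in the blank, both on card A, lay far from the 3 other wells of their medium, with gaps of 0.88 and 0.87 of the whole range, past the critical value of Dixon's test for 4 values. Chance flags about 1 in 20 such groups, and these are wells of 1 sample. The Ct of miR-93#, 28.9 in conditioned media and undetermined in blank media, came from an assay outside the 7 members and was a signal with no counterpart in the control sample. The study itself lists miR-93-3p among the sequences it found only in conditioned media.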

How the results depend on the processing

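The number of members detected in conditioned media (4) stayed between 4 and 5, and that in blank media between 4 and 6, at Ct limits of 32 and 38, with any determined Ct and with rat-named assays counted. The number detected in conditioned media only (0) became 1 with any determined Ct, through miR-93, and 1 when minor-arm and rat-named assays were counted, through miR-93#, the latter count added once the data had been seen. The miR-17/miR-92 count in conditioned media was 5 at every limit tried. Differences between media depended on the reference. Relative to the mean U6 they were 1.79 for miR-106b, 1.62 for miR-25, 1.01 for miR-363 and -1.69 for miR-106a, with a median of 1.31. Relative to the median U6 they were 2.81, 2.63, 2.02 and -0.68 in the same order, with a median of 2.33. Relative to the mean U6 without the outlying wells, chosen after seeing the data, they were 3.05, 2.88, 2.27 and -0.43, with a median of 2.57. These changes follow from the earlier U6 Ct in conditioned media. Centring on the card median kept all 4 negative, with a median of -2.66, and leaving out miR-106a gave a median of -2.47. No paired analysis was possible because there was 1 sample per medium. Depth was 1 well per assay, and no replicate of either medium was available to leave out.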

Other observations

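Of 7 other-arm and rat-named assays of the miR-17/miR-92 cluster, 6 were undetermined in both media. The seventh, rno-miR-17-3p on card A, gave a Ct of 13.1 with embryos and 16.8 in the blank, a difference of -3.65 cycles. The mean U6 difference of that card was -4.08 cycles, so that relative to U6 this assay was later in conditioned media.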
